A study of Mus musculus with 4 samples.

Results

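Matricellular proteins such as tenascin C, thrombospondins, SPARC, periostin and the CCN proteins, and the provisional matrix proteins fibronectin and versican, were followed in the skin of newborn mice without loricrin. Members were taken as probe sets whose platform gene symbol is exactly Fn1, Postn, Sparc, Tnc, Vcan, Thbs1, Thbs2, Spp1, Nov or Ctgf. Of these 10 genes, 6 were found (Fn1, Postn, Sparc, Tnc, Vcan and Thbs2), out of 13674 genes named alone by a probe set on either array type. The annotation lists Ctgf and Nov as Ccn2 and Ccn3, whose gene identifiers carry the older names as synonyms. They are therefore described beside the 6 but not counted among them. Thbs1 is named only together with another gene, Pald1, and no probe set is listed for Spp1, so neither has a value of its own here.

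Loricrin knockout mice were set against wildtype mice, all of strain FVB/N, with whole skin sampled at postnatal day 0. Each genotype had 2 arrays, 1 on each of 2 Affymetrix array types with different probe sets. How loricrin was deleted, and whether skins were pooled or came from separate animals, was not stated in the labels. All 6 members lie on the first array type and only Sparc is also on the second, so every ratio below compares 1 knockout with 1 wildtype array and has no replicate error.

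Matricellular proteins are secreted into the matrix but mainly modulate how cells attach, migrate and respond to growth factors, rather than bearing load as collagens do. They bind integrins, syndecans and CD44, are prominent in developing skin and return in healing wounds, where fibronectin and versican form the early, provisional matrix that fibroblasts later replace with collagen. TGF-beta signalling through SMAD proteins and YAP signalling through TEAD proteins are known inducers of several of them.

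The proximal promoters of Thbs2, Tnc and Sparc, the members with the lowest knockout to wildtype ratios, are shown with that of Postn, whose ratio lay nearest to 0 among the members. Tnc and Postn each have a further window, and for each gene the one with TATAA closest to the start is shown. Each is the 250 bases before a RefSeq transcript start (build GRCm38.p6), on the gene's strand from 5′ to 3′. Capitals mark the core promoter letters TATAA, searched on the sense strand, and the SMAD-binding letters CAGAC, searched on both strands (GTCTG on the other). The windows are chr17:14694263-14694512 (minus strand) for Thbs2, chr4:64046937-64047186 (minus) for Tnc, chr11:55420081-55420330 (minus) for Sparc and chr3:54360857-54361106 (plus) for Postn.
Thbs2: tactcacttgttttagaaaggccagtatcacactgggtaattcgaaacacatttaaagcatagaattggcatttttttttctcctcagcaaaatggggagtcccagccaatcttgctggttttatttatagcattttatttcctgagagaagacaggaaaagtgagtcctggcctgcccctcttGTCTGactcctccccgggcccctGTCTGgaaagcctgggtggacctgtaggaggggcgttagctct
Tnc: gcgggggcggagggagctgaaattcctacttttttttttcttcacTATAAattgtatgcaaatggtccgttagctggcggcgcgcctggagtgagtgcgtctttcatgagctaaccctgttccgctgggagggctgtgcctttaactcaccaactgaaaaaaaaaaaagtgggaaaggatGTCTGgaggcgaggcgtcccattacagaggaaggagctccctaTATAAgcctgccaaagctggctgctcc
Sparc: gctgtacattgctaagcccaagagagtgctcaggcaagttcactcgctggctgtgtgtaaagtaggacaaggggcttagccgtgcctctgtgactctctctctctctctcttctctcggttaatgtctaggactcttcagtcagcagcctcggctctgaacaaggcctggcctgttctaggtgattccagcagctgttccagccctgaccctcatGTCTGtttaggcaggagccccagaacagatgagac
Postn: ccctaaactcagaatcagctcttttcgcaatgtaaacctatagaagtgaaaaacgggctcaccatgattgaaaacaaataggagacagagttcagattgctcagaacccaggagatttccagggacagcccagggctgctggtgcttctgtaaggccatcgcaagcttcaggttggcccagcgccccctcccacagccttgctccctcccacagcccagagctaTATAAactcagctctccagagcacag

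Promoters were matched for 6 of the 10 genes, with 9 windows because Postn, Tnc and Spp1 have more than 1 start. TATAA occurred in 5 of the 9 windows, against 16.0% of 32851 promoter windows of the same length, and CAGAC in 6 of 9, against 42.2%. The windows with TATAA belong to Postn, Tnc and Spp1 only, the genes with more than 1 start, so they are not separate genes. The 2 Tnc windows overlap and share a TATAA, at 126 bases before the start in the window not shown. In Spp1, which has no expression value here, TATAA lay 211 and 238 bases before its starts. In the windows shown, TATAA began 27 bases before the start in Tnc and 26 before it in Postn. Thbs2 held CAGAC on the reverse strand at 66 and 43 bases before the start, and Sparc at 35. The Postn window that is not shown held CAGAC at 191 bases before its start and no TATAA. The Vcan window, also not shown, held neither. Fn1, Thbs1, Ctgf and Nov had no matched window, so windows of members lower and higher in knockout could not be compared. The TEAD-binding letters GGAATG, searched on both strands, were in none of the 9 windows and in 12.6% of all windows. The letters describe these windows and were not tested for binding.

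Signals below are MAS5 values scaled to an equal trimmed mean on both arrays of a type, and signals under a floor of 77.6 on the first type (133 on the second) were set to the floor before ratios were taken. A ratio with 1 signal under the floor is a bound. A difference was counted when it reached 2-fold. None of the 6 members was counted as at least 2-fold lower in knockout skin, and none as at least 2-fold higher. The Thbs2 value is a bound, at least 1.78-fold lower, so whether it passes 2-fold is not settled. Over all 12422 tested probe sets of the first type, 1.22% were at least 2-fold lower and 0.869% at least 2-fold higher, so a count of 0 of 6 is near the background in each direction.

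**Figure D1:**
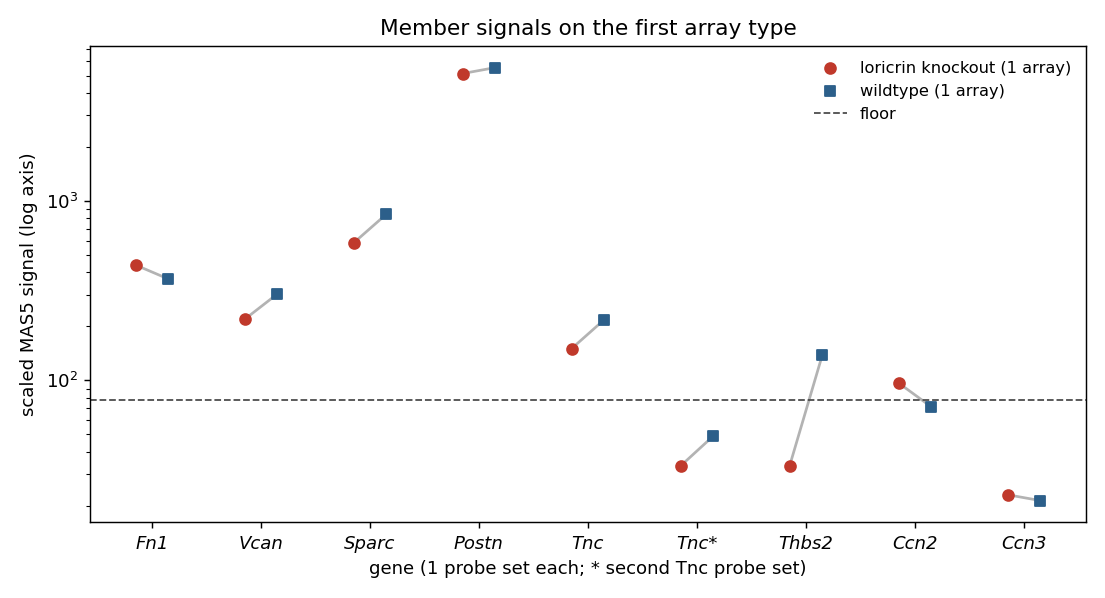
Scaled MAS5 signal (log axis) of each member probe set on the first array type, with the knockout array as circles to the left of the wildtype array as squares and the floor of 77.6 as a dashed line. The widest pair is Thbs2, which crosses the floor, at 33.3 in knockout skin and 138 in wildtype skin.

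With the scaling used here, the provisional matrix pair had ratios of opposite sign. Fibronectin (Fn1, chr1:71585473-71653280 in GRCm38.p6, as are the positions that follow), the adhesive glycoprotein that cells assemble into fibrils through integrins, read 440 in knockout skin and 368 in wildtype skin, a log2 ratio of 0.26 or 1.20-fold higher. Of the 7904 probe sets above the floor on 1 or both arrays, 24.4% had a higher ratio. Versican (Vcan, chr13:89655309-89743027), the large proteoglycan that binds hyaluronan, read 219 in knockout skin and 303 in wildtype skin. Its log2 ratio was -0.47, or 1.38-fold lower, and 11.6% of measured probe sets had a lower ratio. Neither reached 2-fold.

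Sparc (chr11:55394159-55420080), a collagen-binding glycoprotein that takes part in collagen fibril assembly, read 583 in knockout skin and 843 in wildtype skin on the first array type. The log2 ratio was -0.53, or 1.45-fold lower, with 9.15% of measured probe sets lower. On the second type its probe set read 16.4 in knockout skin and 23.4 in wildtype skin, both under the floor of 133, so that type gives no ratio. limma was fitted to 1251 of the genes on both types, not all of them, with the array type as a block. It gave Sparc a mean log2 ratio of -0.27 (SE 0.24, adjusted p = 0.789). The second type enters that mean as 0 because of the floor, so the fit adds no repeat of the first-type value.

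Periostin (Postn, chr3:54359267-54391041), which binds collagen and integrins and is made by fibroblasts and at tissue borders, read 5128 in knockout skin and 5536 in wildtype skin. The log2 ratio of -0.11 was within the middle of the distribution, with 37.8% of measured probe sets lower, and its sign depended on the scaling. It was 0 under quantile normalization, 0.01 under loess and 0.58 when scaled on the bacterial spike-in probe sets.

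Tenascin C (Tnc, chr4:63959785-64047015), a hexameric glycoprotein that counters fibronectin-mediated adhesion and is raised in wounds, has 2 probe sets on the first type. The brighter read 150 in knockout skin and 218 in wildtype skin, a log2 ratio of -0.54 or 1.45-fold lower, with 9.01% of measured probe sets lower. The dimmer read 33.4 in knockout skin and 49.0 in wildtype skin, both below the floor. Without the floor its log2 ratio would be -0.55, close to that of the brighter probe set, but signals at this level are not counted here. With the floor at the 60th percentile of signals, the brighter probe set lay below it too.

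Thrombospondin 2 (Thbs2, chr17:14665500-14694262), an inhibitor of blood vessel growth that also affects collagen fibril form, had the lowest ratio among the members. It read 33.3 in knockout, under the floor, and 138 in wildtype, which makes it at least 1.78-fold lower, a log2 ratio of -0.83 or below. With the floor at the 20th percentile of signals, both arrays counted as measured and the log2 ratio was -2.05. With it at the 60th percentile, neither did. The size of the Thbs2 difference thus depended on the floor.

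For Thbs1 (chr2:118111876-118127133), the related thrombospondin that activates latent TGF-beta, the annotation offers 1 probe set, which also names Pald1. It read 1185 in knockout skin and 498 in wildtype skin, a log2 ratio of 1.25 or 2.38-fold higher, and 0.595% of measured probe sets had a higher ratio. Because the probe set names both genes, this signal cannot be credited to either, and it was left out of all member counts.

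The CCN proteins are modular matrix proteins that bind integrins and growth factors. Ccn2 (Ctgf in the older naming, chr10:24595442-24598683), a target of TGF-beta and YAP signalling, read 96.8 in knockout skin and 71.2 in wildtype skin, the wildtype value under the floor. It was thus at least 1.25-fold higher, a log2 ratio of 0.32 or above. Ccn3 (Nov, chr15:54745910-54753762) read 23.1 in knockout skin and 21.4 in wildtype skin, both under the floor, and gave no ratio. With both genes added, none of the 7 above the floor was counted as past 2-fold, with Thbs2 and Ccn2 as bounds.

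**Figure D2:**
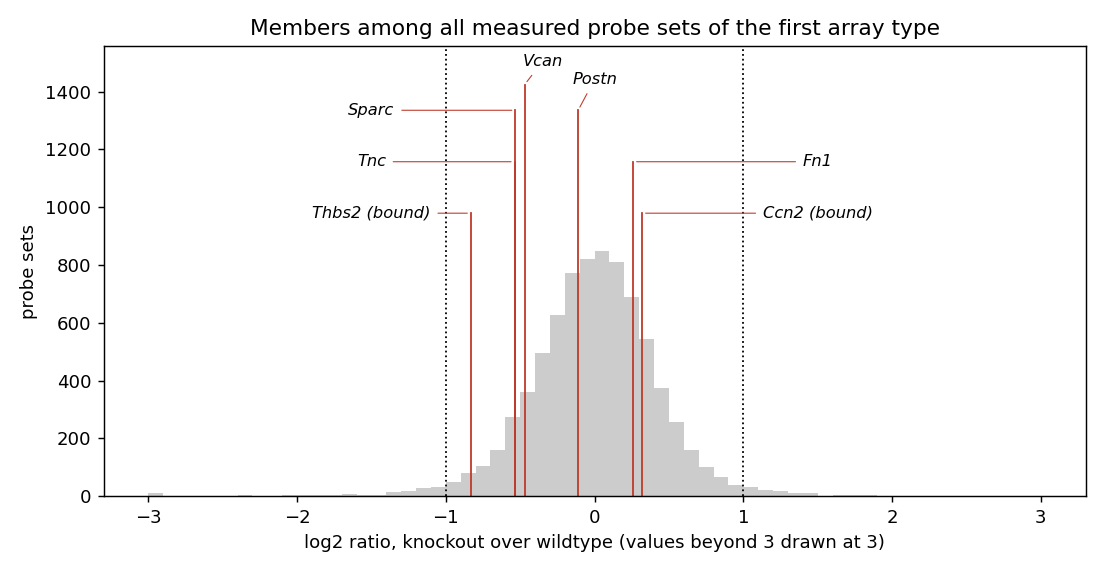
Histogram of the log2 ratio of knockout over wildtype for the 7904 measured probe sets of the first array type, with members and Ccn2 as vertical lines (their height carries no value) and 2-fold as dotted lines. Thbs2, Tnc, Sparc and Vcan lie in the left shoulder between -0.83 (a bound) and -0.47, and all lines as drawn lie inside 2-fold.

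Among the 6 members, 5 had a log2 ratio below 0 and 1, Fn1, above it. The median was -0.50, against 0.02 over all 5977 measured genes of the first type, of which 48.2% were below 0. The bound of Thbs2 does not enter this median, which lies between Sparc and Vcan. At a looser rule of 1.5-fold, 1 member (Thbs2) was lower and none higher, beside 4.69% lower and 4.11% higher among all tested probe sets. The second type, where Sparc gave no ratio, had 6.98% lower and 6.08% higher at that rule. The 6 were chosen as a family with earlier results of these arrays known, and no test was made of the median. Scaling on the 9 bacterial spike-in probe sets shifted the ratios of the first type upward. The median of all measured genes became 0.67 and that of the members 0.19, with only Thbs2 still below 0, at -0.46. Directions here are therefore relative to the typical gene.

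**Figure D3:**
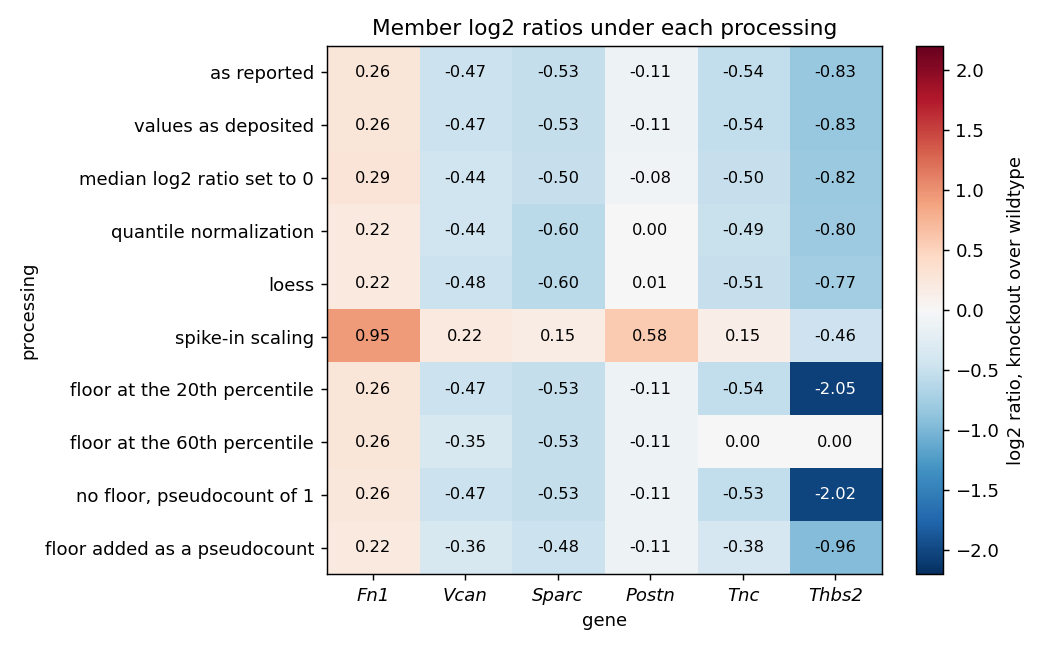
Log2 ratio of knockout over wildtype for the 6 members (columns) under each processing (rows), coloured from blue for lower to red for higher in knockout. Vcan, Sparc and Tnc read -0.47, -0.53 and -0.54 as reported and turn positive under spike-in scaling only, while Thbs2 runs from -2.05 to 0 with the floor.

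Marker genes of the cells that make these proteins differed between the same arrays. Keratinocyte markers of whole skin were present in both, with Krt10 at 18480 in knockout skin and 25556 in wildtype skin, while Krt5 and Krt14 probe sets lay under the floor in both. Of 6 keratinocyte markers above the floor, 2 were at least 2-fold higher in knockout and none at least 2-fold lower. The basal keratinocyte regulator Trp63 read 1906 in knockout skin and 913 in wildtype skin, and Col17a1, a collagen of basal cell attachment, 1702 in knockout skin and 635 in wildtype skin. The other 4, Krt10 among them, had log2 ratios from -0.58 to -0.47. Of 8 dermal fibroblast markers above the floor, 6 were at least 2-fold lower in knockout, with a median log2 ratio of -2.32 and a summed signal over the 9 markers on the array of 4199 in knockout skin and 8386 in wildtype skin. Col1a1 read 172 in knockout skin and 1545 in wildtype skin. Col1a2 enters the sum on its brightest probe set, at 1082 in knockout skin and 1076 in wildtype skin. Another Col1a2 probe set read 125 in knockout skin and 1580 in wildtype skin. Pdgfra was at least 5.17-fold lower on its brightest probe set, while a further one read 200 in knockout skin and 139 in wildtype skin. Decorin (Dcn), another product of fibroblasts, read 2462 in knockout skin and 2556 in wildtype skin. Decorin and the brightest Col1a2 probe set make up most of the summed knockout signal. The 5 members measured on both arrays had log2 ratios from -0.54 to 0.26, and Thbs2 -0.83 or below, beside -0.05 for decorin and -3.17 for Col1a1. In whole skin, fewer fibroblasts and less RNA per fibroblast cannot be told apart, and probe sets of Col1a2 and of Pdgfra disagreed. The part of the fibroblast marker differences in the member values was not tested.

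Markers of other cell types in whole skin were compared in the same way, on the first array type unless stated. Macrophage markers, 8 of 8 above the floor, summed to 5796 in knockout skin and 6004 in wildtype skin, with none past 2-fold. Endothelial markers summed to 657 in knockout skin and 1183 in wildtype skin, with 4 of 8 above the floor and none past 2-fold. The 4 platelet markers summed to 240 in knockout skin and 307 in wildtype skin, with Pf4 under the floor in both. On the second type the platelet marker Ppbp read 227 in knockout skin and 402 in wildtype skin, a log2 ratio of -0.82. Erythroid markers summed to 5520 in knockout skin and 21746 in wildtype skin, 3 of 3 above the floor being at least 2-fold lower. Smooth muscle and pericyte markers summed to 262 in knockout skin and 506 in wildtype skin, with 4 of 4 above the floor having ratios below 0 and Tagln at least 2.07-fold lower. On the second type Myh11 read 403 in knockout skin and 381 in wildtype skin, and Rgs5 had a log2 ratio of -0.03 (a bound). Of 3 Schwann cell markers above the floor, Pmp22 was at least 2.51-fold lower and the others had log2 ratios of -0.14 and 0.01. The Schwann cell marker Sox10 read 1175 in knockout skin and 1045 in wildtype skin on the second type. Single markers were above the floor for skeletal muscle (Mylpf, log2 ratio -0.73) and adipocytes (Fabp4, -0.07). Cartilage and bone markers summed to 431 in knockout skin and 348 in wildtype skin on the first type. On the second type they summed to 556 in knockout skin and 788 in wildtype skin, with 1 of 2 at least 2-fold lower. The part of these markers in the member values was not tested. The arrays also differed in sex-linked RNA, with Xist at 857 in knockout skin and 24.7 in wildtype skin and the Y-linked Eif2s3y at 42.7 in knockout skin and 1071 in wildtype skin, so sex and genotype cannot be told apart. Loricrin itself read 2013 in knockout skin and 41224 in wildtype skin.

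Related matrix glycoproteins split in both directions. Of 30 listed, 23 had a first-type probe set and 14 were above the floor. Of these 14, 4 were at least 2-fold lower, 1 was at least 2-fold higher and 9 did not pass, with a median log2 ratio of 0.02. Among all tested probe sets of the first type, 1.22% were at least 2-fold lower and 0.869% at least 2-fold higher. Fbln1 was counted on its brightest probe set alone, and Sparcl1 as a bound. The lower ones were fibulin 1 (Fbln1), fibulin 2 (Fbln2), Spock2 and Sparcl1, the closest relative of Sparc. Fbln2, which binds fibronectin and elastic fibre proteins, read 271 in knockout skin and 616 in wildtype skin. Spock2, a proteoglycan with a SPARC-like domain, read 83.1 in knockout skin and 211 in wildtype skin. Sparcl1 read 33.3 in knockout, under the floor, and 163 in wildtype, at least 2.10-fold lower. Smoc2, a further SPARC family member and the fifth past 2-fold by size, so named outside the rule of 4 after its values were seen, was just past the rule in the other direction, 470 in knockout skin and 234 in wildtype skin, or 2.01-fold higher. It passed 2-fold in 6 of 10 settings of scaling and floor, against 8 for Fbln2, 7 for Spock2 and 8 for Sparcl1. Under spike-in scaling the list held 1 gene lower and 5 higher.

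Fbln1 differed between its probe sets. The one with the highest mean signal read 82.5 in knockout skin and 15720 in wildtype skin, a log2 ratio of -7.57. The other 3 read 865, 1013 and 2356 in knockout and 780, 1181 and 2230 in wildtype, with log2 ratios of 0.15, -0.22 and 0.08. The large difference was thus seen on 1 of 4 probe sets.

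Also in this list, the integrin-binding CCN protein Ccn1 read 180 in knockout skin and 128 in wildtype skin, a log2 ratio of 0.49. Tgfbi, a TGF-beta-induced adhesion protein related to periostin, read 734 in knockout skin and 442 in wildtype skin, a log2 ratio of 0.73. Both were named after their values were seen, and neither reached 2-fold. On the second array type 4 listed genes, Tnn, Bcan, Spock2 and Thbs4, had probe sets and none was above the floor.

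**Figure D4:**
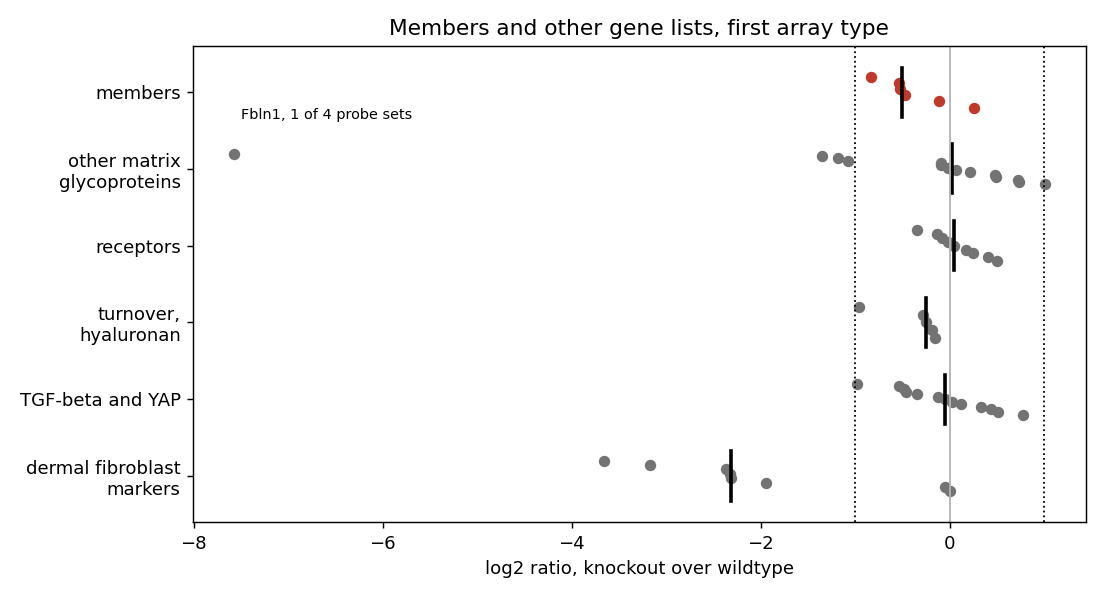
Log2 ratio of knockout over wildtype on the first array type for each gene above the floor, by list, with list medians as black bars and 2-fold as dotted lines. The members (median -0.50) sit between the dermal fibroblast markers (median -2.32) and the 4 related lists drawn, whose medians run from -0.26 to 0.05. Marker lists that are not drawn include keratinocyte (median -0.48) and endothelial markers (-0.37).

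Receptors for these proteins stayed within 2-fold with the scaling and floor used here. None of 9 above the floor on the first type and none of 4 on the second passed, with medians of 0.05 and 0.04. Under spike-in scaling 2 of the first type were at least 2-fold higher. With no floor, 1 was at least 2-fold lower on each type and 1 at least 2-fold higher on the second. The fibronectin and periostin receptor subunit Itgb1 read 3311 in knockout skin and 2933 in wildtype skin. The broad RGD-binding subunit Itgav read 2445 in knockout skin and 1845 in wildtype skin, a log2 ratio of 0.41 that a further Itgav probe set gave as 0.43. The thrombospondin receptor Cd47, likewise picked once its values were known, gave log2 ratios of 0.50 and 0.18 on its 2 probe sets. On the second type the hyaluronan and osteopontin receptor Cd44 read 4172 in knockout skin and 3973 in wildtype skin, and a further probe set gave a log2 ratio of 0.17. On the first type its log2 ratio was -0.34. The heparan sulfate proteoglycan Sdc3 read 987 in knockout skin and 981 in wildtype skin on the second type.

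Genes of turnover and of hyaluronan synthesis gave 1 difference past 2-fold. On the first type none of 5 above the floor passed, with a median of -0.26 and Timp1 at 355 in knockout skin and 433 in wildtype skin. The plasminogen activator Plat had the lowest ratio of the 5, with 77.0 in knockout, under the floor, and 151 in wildtype, which makes it at least 1.95-fold lower. The hyaluronan synthase Has2, outside the naming rule and chosen after its values were seen, read 80.4 in knockout skin and 95.9 in wildtype skin. On the second type, of 2 above the floor, the versican-cleaving protease Adamts5 read 701 in knockout skin and 234 in wildtype skin, a log2 ratio of 1.58, beside 1.48% of all 12411 tested probe sets at least 2-fold higher there and 1.84% at least 2-fold lower. A further Adamts5 probe set read 208 in knockout skin and 316 in wildtype skin, a log2 ratio of -0.60, and the remaining 4 were under the floor. The versicanase Adamts4, also picked after seeing its values, read 226 in knockout skin and 218 in wildtype skin.

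The TGF-beta and YAP pathways, known inducers of the members, held no gene past 2-fold on either type, out of 13 and 8 above the floor. The list medians were -0.05 and -0.01. The brightest on the first type were Yap1, at 3307 in knockout skin and 2443 in wildtype skin, and Smad4, at 1625 in knockout skin and 1137 in wildtype skin. Tgfb3, named after its value was seen, came nearest to 2-fold, at 204 in knockout skin and 404 in wildtype skin, a log2 ratio of -0.99. The count of genes past 2-fold changed with the processing. On the first type, loess put 1 gene at least 2-fold lower, and spike-in scaling put 3 at least 2-fold higher. A floor lowered to the 20th percentile gave 2 lower there, while removing the floor gave 3 lower and 1 higher. On the second type all genes past 2-fold were higher in knockout. Spike-in scaling gave 2 of them, the lowered floor 1, no floor 2, and the floor added as a pseudocount 1. The brightest on the second type were the TGF-beta receptors Tgfbr3 and Tgfbr1. Tgfbr1 read 1233 in knockout skin and 1369 in wildtype skin. Tgfbr3 had log2 ratios of -0.34 (a bound) on the first type and of 0.63 and -0.04 on its 2 second-type probe sets.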

How the data were processed

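Total RNA from whole skin at postnatal day 0 was labelled with biotin and hybridised to 4 arrays. Each deposited intensity value is linear, 1 per probe set, and the submitters' processing notes name MAS5 as the authors' tool. Its version, target scaling and detection calls were not stated there. Trimmed means of the 4 columns lay between 500.2 and 500.4.

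From these, each pair of arrays was scaled to a common 2% trimmed mean, controls (66 per type) were left out, and signals were floored at the mean 40th percentile. The log2 ratio was taken per probe set, and a gene took its probe set of highest mean signal. Array annotation names 1 gene for 10833 and 10581 probe sets, several for 396 and 178, and none for 1193 and 1652. limma 3.58.1 in R 4.3.3 (Benjamini-Hochberg adjustment) covered 1251 of the genes on both types. With the array type as a block, a gene's residual is the gap between its ratios on the 2 types, from different probe sets. No label ties arrays to separate animals, so the p-values may hold no spread between animals. Steps were tested on simulated data. Alternatives covered scaling, floor, fold, suffixed probe sets, how a gene is summarised and the array-type block (loess by statsmodels 0.14.6). Lists were named by genes past 2-fold, at most 4 per list and type, or else their 2 genes of highest mean signal. Members and lists here were chosen with earlier results of these data known. Arrays carry no counts, so their number limits the precision.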

Additional observations from a re-analysis of the deposited data

How the results depend on the processing

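With 1 array per genotype and type, no ratio has a replicate error. The member count of 0 lower became 1 (Thbs2) with the floor at the 20th percentile, with no floor and under the 1.5-fold rule, and the count of 0 higher did not change under any alternative. The member median of -0.50 kept its sign except under spike-in scaling (0.19). It was -0.23 when the 60th percentile was the floor, but over 4 members only, as Thbs2 and Tnc were then below the floor. The median was -0.47 both without Thbs2 and with Ccn2 and Ccn3, settings chosen after seeing the data. Counts of all probe sets moved with the floor. On the first type, 151 lower and 108 higher became 700 and 434 at the 20th percentile, 40 and 40 at the 60th, 1263 and 833 with no floor, and 59 higher with the floor added as a pseudocount. On the second, 228 lower and 184 higher became 819 and 732, 58 and 38, 1361 and 1246, and 110 higher. Spike-in scaling gave 51 lower and 1432 higher for the first type, then 60 and 1415 for the second, which turns the share of higher among them from 41.7% to 96.6% and from 44.7% to 95.9%. A 1.5-fold rule gave 583 and 510, and 866 and 755; a 3-fold rule 48 and 16, and 51 and 31. limma found 0 of 1251 genes past an adjusted p of 0.05 and 103 at an unadjusted p under 0.05, against 10 under loess, 555 when scaled on spike-ins and 7 for a floor at the 60th percentile. Sparc, with no replicate block, had the same mean of -0.27, and leaving out either type gave 0 or -0.53. The causes were not tested. Labels give no replicate numbers that pair arrays.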

Other observations

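Several genes near the members gave different ratios on different probe sets, and these were picked out once their values were known. Col1a2, the second chain of type I collagen, read 125 in knockout skin and 1580 in wildtype skin on a first probe set, a log2 ratio of -3.66, and 1082 in knockout skin and 1076 in wildtype skin on another, a log2 ratio of 0.01. Lats2, a kinase that restrains YAP, had a log2 ratio of -0.12 on the first type and of -0.82 on one probe set of the second. A further second-type probe set read 24.9 in knockout, under the floor, and 183 in wildtype, a log2 ratio of -0.46 or below.

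Col9a1, a cartilage collagen that was listed as a marker of other tissue in whole skin, read 219 in knockout skin and 135 in wildtype skin on the first array type. On the second it read 5.60 in knockout, under the floor, and 290 in wildtype, at least 2.18-fold lower.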
